A study of Mus musculus with 30 samples.

Results

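E14tg2a mouse ESCs that had been kept for 20 passages (P20) in 2i/LIF were compared, across all genes, with ESCs kept for as long in Serum/LIF. The libraries are the 3 of P20 2i/LIF and the 3 of P20 Serum/LIF, 6 of the 30 RNA-seq libraries of the series and 6 of the 18 of its passage experiment. That experiment also holds the same pair of media at passage 10 (P10), used here only to ask whether a difference changed between the passages, and Enhanced Metabolic Media (EMM), in which galactose replaces glucose and pyruvate. Serum/LIF was DMEM with fetal bovine serum, glucose, pyruvate and LIF. 2i/LIF was serum-free N2B27 medium with CHIR99021, PD03 and LIF. LIF was common to both media, while serum, base medium and the 2 inhibitors changed together, so their parts in any difference cannot be told apart. E14tg2a is a single established ESC line, and the study describes the 3 libraries of a medium as biologically independent samples of it, so the p-values measure the spread between cultures of 1 line.

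CHIR99021 inhibits GSK3, the kinase that marks β-catenin for destruction, and so switches on targets of Wnt signalling. PD03 inhibits MEK, the kinase that activates ERK. ERK drives ESCs out of the naive state and also induces its own feedback inhibitors, the Dusp phosphatases and the Sprouty and Spred proteins. LIF, present in both media, acts through gp130, JAK and STAT3.

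Values are normalised read counts per gene, that is, estimated counts scaled by each library's effective size, and a log2 fold change is 2i/LIF over Serum/LIF at P20 unless another passage is named. They compare a gene between libraries and not genes with each other, since they are not divided by gene length. Where a gene is said to rise or fall by a value, or a value stands in parentheses after it, that value is its log2 fold change with its standard error (SE). Gene positions are from GENCODE M21 (GRCm38). Total counts ran from 6944904 to 21090048 in P20 2i/LIF (median 16537757) and from 11656040 to 20305316 in P20 Serum/LIF (median 14098217). Replicate 1 of 2i/LIF was the shallowest library, and the mitochondrial genome took 1.04% of its counts, against 2.28% and 2.75% in the other 2i/LIF libraries and 2.16% to 2.24% in Serum/LIF. The 8 ESC markers Pou5f1, Sox2, Nanog, Esrrb, Zfp42, Dppa5a, Sall4 and Tdgf1 were detected in every library of both media. Their summed counts ran from 80016 to 110298 in 2i/LIF, the highest in replicate 1 with 50323 of Dppa5a, and from 82814 to 89571 in Serum/LIF. Of the 8, Nanog was higher in 2i/LIF and Sox2 (−0.73) and Tdgf1 (−0.82) were lower. Markers of other cells were lower in 2i/LIF for fibroblasts (7 genes, 91.6 to 98.7 against 3579 to 7120.2), mesoderm (4 genes, 114 to 139 against 384 to 499), primitive endoderm (6 genes, 77.5 to 136 against 226 to 315) and trophectoderm (5 genes, 143 to 253 against 321 to 493). Dcn was at 0 in every 2i/LIF library, Mesp1 likewise, and Neurog2 was at 0 in every Serum/LIF library. Neural markers, which are mostly Tubb3, stood at 1494 to 1621 in 2i/LIF and at 1159 to 1248 in Serum/LIF. Tubb3 lies on chromosome 8, and its log2 fold change of 0.39 was −0.05 with that chromosome's median subtracted. In bulk RNA, fewer cells of a type and less RNA per cell cannot be told apart, and the part of such cells in the differences below was not tested.

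Of 55487 genes in the table, 16054 passed the filter on low counts. Calls needed both an adjusted p under 0.01, by edgeR's quasi-likelihood test with Benjamini-Hochberg adjustment, and a log2 fold change past 1 or −1. By this rule 1087 genes were higher in 2i/LIF at P20 (6.77% of those tested) and 2489 were lower (15.5%), 22.3% together, so that 30.4% of the calls were higher. A filter that asked for 10 counts in every library of both media, and so removed genes silent in one of them, left 718 higher and 1000 lower, of which 41.8% were higher, and among genes above the median mean level 51.0% of the calls were higher. In 1074 of the higher genes and 2478 of the lower ones, no 2i/LIF library overlapped a Serum/LIF library. Calls of this size nearly imply such a separation, so it is no added support for them. Its share among all genes tested is not given here. By adjusted p alone, 3366 genes were higher (21.0%) and 3722 lower (23.2%), 44.2% together. These last shares are the background for every gene list below, whose members were counted as higher or lower by adjusted p alone. Of the genes named in the text, 19 lost such a call without any change of direction when a single library was left out, namely Aldh3a1, Apcdd1, Cdx1, Ctnnb1, Cyp1b1, Ddit3, Etv5, Fos, Fosb, Gata6, Gm6763, Lefty2, Rian, Rnf43, Sox1, Stat5a, T, Tet1 and Trib3. In the same way B2m, Chac1, Fgf4, Gapdh, Klf4, Notum, Phgdh, Psph and Sc5d gained a call when a single library was left out.

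The calls did not fall evenly over the genome. On chromosome 8, 833 genes were tested and their median log2 fold change was 0.45, or 1.36-fold, with quartiles of −0.22 and 0.79. On chromosome 6, with 746 genes, the median was 0.33, or 1.25-fold, with quartiles of −0.31 and 0.77. Genes of all other chromosomes together had a median of −0.03, and single chromosomes ran from −0.18 for chromosome 14 to 0.08 for chromosome 16. By adjusted p alone, 47.3% of chromosome 8 genes and 38.6% of chromosome 6 genes were higher, against 18.6% elsewhere, while 15.2%, 16.1% and 24.1% were lower. The shift was a shared one, with 70.5% of chromosome 8 genes and 64.9% of chromosome 6 genes above 0, against 47.6% elsewhere. Over every gene with at least 1 count, low ones included, the medians were 0.19 and 0.00, and scaling by library totals alone gave 0.33 and 0.21. DNA copy number was not measured, and its part in these shifts was not tested.

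**Figure D1:**
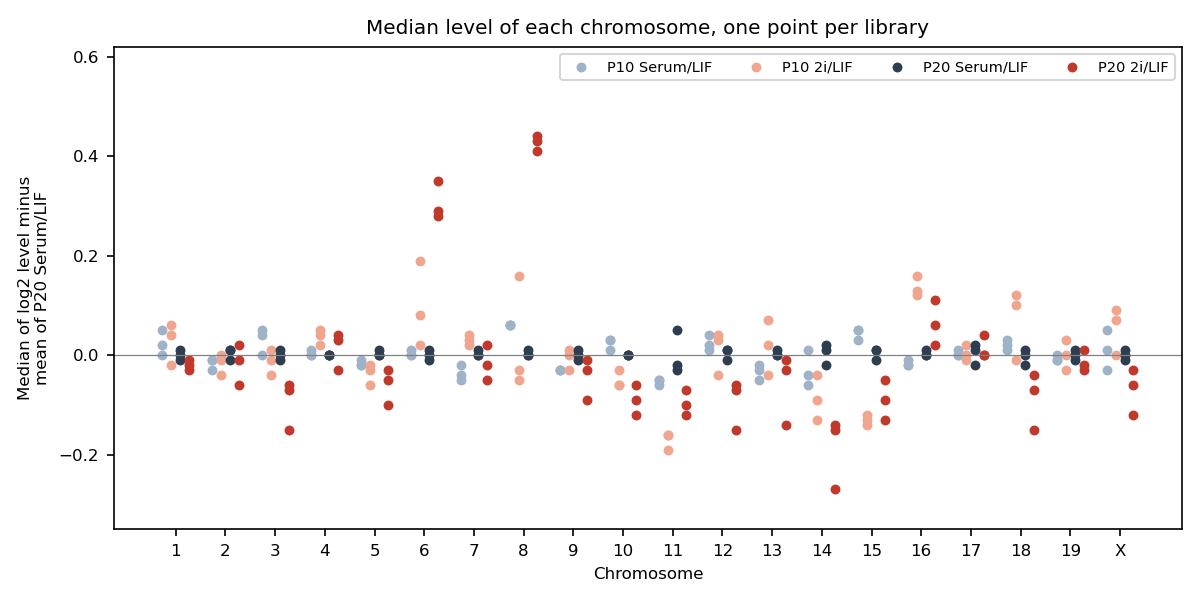
Median level of the tested genes of each chromosome (horizontal axis) in each library, as log2 difference from the mean of P20 Serum/LIF (vertical axis), 1 point per library and 3 libraries for each of 4 groups. On chromosomes 6 and 8 the P20 2i/LIF libraries, at 0.28 to 0.35 and 0.41 to 0.44, stand above all other libraries shown.

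All 3 P20 2i/LIF libraries carried the shift. Against the mean of P20 Serum/LIF, the chromosome 8 median was 0.44, 0.43 and 0.41 in them (mean 0.43 ± 0.0136 SD, n = 3), and the chromosome 6 median was 0.29, 0.35 and 0.28 (0.31 ± 0.0418 SD, n = 3). The Serum/LIF libraries had SDs of 0.00648 and 0.0104 around 0, and the groups did not overlap. Both chromosomes were singled out because they were already known to be raised in these libraries, so these values are a description with no test. At P10 the 2i/LIF libraries stood at 0.16, −0.03 and −0.05 on chromosome 8 and at 0.19, 0.02 and 0.08 on chromosome 6, measured against the same P20 Serum/LIF mean. The P10 Serum/LIF libraries stood at 0.06 in all 3 on chromosome 8, within the range of P10 2i/LIF, and at 0.00, 0.01 and 0.00 on chromosome 6. Along chromosome 8, divided into 10 stretches, every stretch had a median between 0.36 and 0.57. Along chromosome 6 the first 4 stretches had medians of 0.01, −0.04, 0.14 and 0.17, and the other 6 had 0.52, 0.65, 0.41, 0.44, 0.70 and 0.39. The shift thus ran over the whole of chromosome 8, and on chromosome 6 it was larger in the stretches farther from the start.

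**Figure D2:**
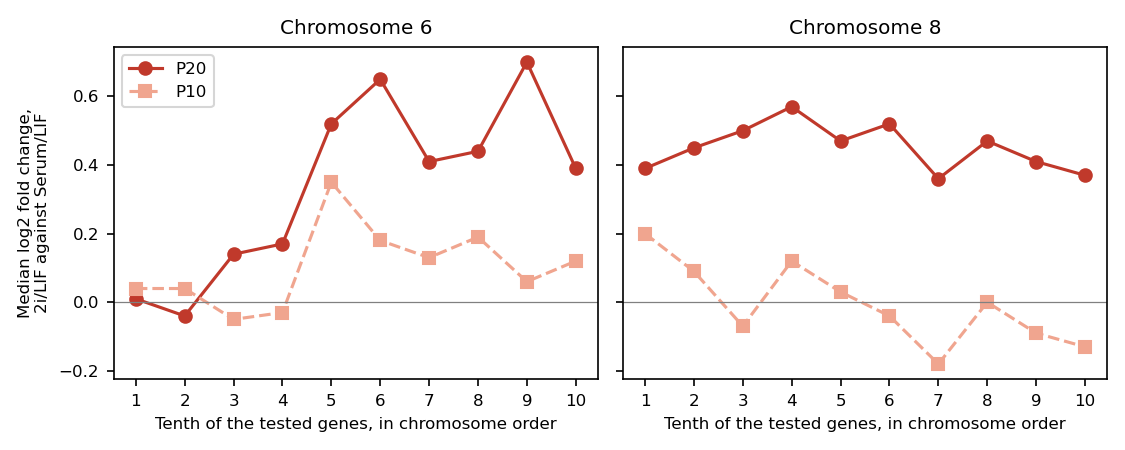
Median log2 fold change of 2i/LIF over Serum/LIF (vertical axis, log2) in each of 10 stretches with equal numbers of tested genes along chromosomes 6 and 8 (horizontal axis, in chromosome order) at P20 and P10. At P20 all stretches of chromosome 8 lie between 0.36 and 0.57, and those of chromosome 6 go from −0.04 and 0.01 near its start to as much as 0.70.

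The 5 most abundant genes of each chromosome show how far single genes followed it. On chromosome 8 all 5 rose. Cdh1, which encodes E-cadherin (chr8:106603351-106670246), stood at 15253, 15736 and 17092 normalised counts in 2i/LIF and at 6029, 6331 and 6279 in Serum/LIF, a log2 fold change of 1.37 (SE 0.07, adjusted p = 9.22e-12). The alanyl-tRNA synthetase gene Aars rose by 0.94 (SE 0.12), the ribosomal protein gene Rpl13 by 0.65 (SE 0.14), and Cnot1, the scaffold of the CCR4-NOT deadenylase complex, by 0.82 (SE 0.09). Rpl13 was highest in replicate 1 of 2i/LIF, with 31374, 21047 and 21355 in the 3 libraries against 17868, 14850.3 and 14303 in Serum/LIF. On chromosome 6 only the RNA-binding protein gene Hnrnpf passed the test, at 0.54 (SE 0.08). Gapdh had 0.14 (adjusted p = 0.270), Serbp1 0.19, Hnrnpa2b1 0.14 and the glucose transporter gene Slc2a3 −0.11, none of which passed. Without 2i/LIF replicate 1 Gapdh passed, at 0.29. With each chromosome's own median subtracted, the calls on chromosome 8 went from 110 higher and 104 lower to 54 and 121, and on chromosome 6 from 106 and 92 to 67 and 106. Among named genes that passed the test, the log2 fold change then moved by over 1.5 times for Aars (to 0.49), Cnot1 (0.38), Rpl13 (0.20), Fgfr1 (0.24), Sox1 (0.62), Slc7a5 (0.56), Hnrnpf (0.22), Nanog (0.19) and Tcf7l1 (−0.92), and for Tubb3 as given above. On the other chromosomes 871 genes were called higher and 2293 lower.

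The largest rises, among called genes with a symbol that is not a clone or a Gm, Rik or BC number, a mean of at least 50 normalised counts in 1 medium and no overlap of the media, were of genes nearly silent in Serum/LIF. Cd180, an immune receptor gene that overlaps the gene Mast4 on the opposite strand, had 139, 153 and 192 normalised counts in 2i/LIF and 1.05, 0 and 0 in Serum/LIF, a ratio of 520.2-fold (95% counting interval 92.9 to 20589). The serotonin receptor gene Htr5a had 143, 189 and 234 against 0, 1.43 and 1.25, a ratio of 209-fold (95% counting interval 71.1 to 1015), and the adhesion gene Jaml had 115, 75.4 and 92.0 against 0, 1.43 and 1.25, a ratio of 91.9-fold (95% counting interval 31.1 to 449). Ion channel genes followed, Pkd2l1 (chr19:44147637-44192442) with 1196, 1101 and 976 against 12.6, 14.3 and 18.8, a log2 fold change of 6.17 (SE 0.32, adjusted p = 2.11e-11), and Cnga4 with 5.83. The proteolipid gene Mal, at 6.20, the troponin gene Tnni1, at 5.47, the lymphoid adaptor gene Sash3, at 5.55, and Brinp3, a neural gene, with a ratio of 57.7-fold (95% counting interval 19.4 to 283), have their best known roles in other tissues. Homeobox genes were Hoxc4 (chr15:103018934-103036852), with 106, 148 and 138 against 2.10, 2.86 and 1.25 and a log2 fold change of 5.83 (SE 0.36, adjusted p = 2.11e-10), and Nkx1-2 (chr7:132594878-132599637), with 945, 921 and 742 against 16.8, 15.0 and 25 and 5.56 (SE 0.26, adjusted p = 6.39e-12). Cyp1a1 (chr9:57687928-57703824), the cytochrome P450 gene best known as a target of the aryl hydrocarbon receptor, had 279.6, 466 and 528 against 6.30, 10.0 and 11.3 and rose by 5.53 (SE 0.30, adjusted p = 4.61e-11). Of these 12 genes none lies on chromosome 6 or 8.

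The largest falls by the same rule were of genes at or near 0 in every 2i/LIF library, where expression was not detectable at this depth or nearly so. Car4, a membrane carbonic anhydrase gene (chr11:84957786-84966044), stood at 196, 162 and 169 in Serum/LIF and at 0 in all 3 libraries of 2i/LIF, at least 164-fold lower against a floor of 3 counts over the group. Smooth muscle actin Acta2 (chr19:34241090-34255590) had 0, 0.739 and 0.958 against 793, 730.0 and 1271, lower by a ratio of 1251-fold (95% counting interval 346 to 10335). Tagln, which encodes transgelin and overlaps Pcsk7 on the opposite strand, had 7.05, 0.739 and 0 against 983, 924 and 1454, a log2 fold change of −9.49 (SE 0.42, adjusted p = 2.80e-12). Caveolin Cav1 (chr6:17306335-17341452) was at 0 in 2i/LIF and at 106, 122 and 146 in Serum/LIF, at least 116-fold lower, and the cardiac actin gene Actc1 at least 70.8-fold lower. These contractile and membrane genes are followed by the noncoding RNA Halr1 of the HoxA region (at least 111-fold), the retinoic acid hydroxylase Cyp26a1 (67.5-fold), the protocadherin Pcdh7 (65.7-fold) and the G protein regulator Rgs17 (64.5-fold), all at 0 in the 3 libraries of 2i/LIF. The imprinted RNA H19 (chr7:142575529-142578143) had 0, 0 and 5.75 against 1119, 1198 and 2129.8, a log2 fold change of −9.36 (SE 0.42, adjusted p = 3.52e-12). Zscan4b and Duxbl2, members of multigene families of the 2-cell embryo whose copies share reads, were at least 73.2-fold and 70.8-fold lower. Zscan4b was itself uneven in Serum/LIF, at 31.5, 66.4 and 153.

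Targets of ERK were lower almost throughout. Of 22 tested members of a list of 23 ERK target genes, 19 were lower and 1 higher, with a median log2 fold change of −1.48. All 8 feedback inhibitors fell. The phosphatase gene Dusp4 (chr8:34807297-34819894) stood at 30.5, 17.7 and 11.5 normalised counts in 2i/LIF and at 629, 665 and 803 in Serum/LIF, a log2 fold change of −5.30 (SE 0.22, adjusted p = 1.17e-12). Dusp6, the ERK-specific phosphatase gene (chr10:99263231-99267489), had 129, 161 and 94.8 against 979, 1003 and 1026 (−2.95, SE 0.12, adjusted p = 1.03e-12), and Spry4, a Sprouty gene, had 143, 166 and 176 against 2188, 2279 and 2219.9 (−3.76, SE 0.13, adjusted p = 1.24e-13). For these 3 inhibitors the highest 2i/LIF library stayed far below the lowest Serum/LIF library. Dusp5 fell (−4.20, SE 0.18), Spry1 (−2.23, SE 0.14), Spred1 (−1.16, SE 0.10), Spry2 (−1.05, SE 0.07) and Spred2 (−0.93, SE 0.12).

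Immediate early genes, transcribed within minutes of ERK activation, were lower for 7 of 8 tested. Egr1 (chr18:34859823-34864984) had 2.35, 8.87 and 12.5 in 2i/LIF and 359, 393 and 427 in Serum/LIF (−5.40, SE 0.22, adjusted p = 1.12e-12). Myc, a driver of growth and proliferation (chr15:61985391-61990374), had 146, 188 and 176 against 1003, 895 and 952 (−2.45, SE 0.14, adjusted p = 6.38e-11). Fos and Fosb fell (−1.30, SE 0.37, and −1.67, SE 0.43) at low counts, Ier3 (−1.25, SE 0.22), and Ier2, with 0.33 (adjusted p = 0.118), did not pass. The 3 Ets factor genes fell less, Etv4 (−0.82, SE 0.13), Etv1 (−0.69, SE 0.13) and Etv5 (−0.37, SE 0.10). Phlda1 fell (−3.26, SE 0.19). The exception was Ccnd1, cyclin D1, which rose from 2183, 2049 and 2095 in Serum/LIF to 4194, 4095 and 4619 in 2i/LIF, a log2 fold change of 1.03 (SE 0.09, adjusted p = 1.06e-08); it overlaps LTO1 on the opposite strand.

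The genes of the ERK pathway itself did not share this direction. Among 18 components 4 were higher, 4 lower and 10 past neither side. That is 22.2% each way, near the 21.0% and 23.2% of all genes tested. Fgfr2, a receptor for FGF ligands, had 9.40, 8.13 and 9.58 against 273, 259 and 262 (−4.88, SE 0.23, adjusted p = 6.17e-12), while Fgfr1, on chromosome 8, rose by 0.68 (SE 0.10). Fgf5 was at 0 in 2i/LIF and at 45.2, 46.4 and 30.0 in Serum/LIF, at least 39.4-fold lower, and Fgf4, the autocrine ligand of ESCs, had 0.22 (adjusted p = 0.0193). The kinase gene Braf, on chromosome 6, fell (−0.66, SE 0.14). Map2k1, which encodes MEK1, had −0.16 (adjusted p = 0.0424). Without the genes of chromosomes 6 and 8 the count was 1 higher and 3 lower.

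Wnt targets did not move together at P20. Of 17 tested members of a list of 18, 5 were higher, 7 lower and 5 neither, with a median of −0.04. Axin2, a general feedback target of β-catenin (chr11:108920349-108950783), stood at 1238, 1578 and 1569 in 2i/LIF and at 411, 419 and 521 in Serum/LIF (1.71, SE 0.18, adjusted p = 2.03e-07). The transcription factor gene Sp5 had 482, 430.0 and 492 against 165, 145 and 133 (1.66, SE 0.27, adjusted p = 5.26e-05), Rnf43, a remover of Wnt receptors, rose by 1.21 (SE 0.34), Apcdd1 by 0.72 (SE 0.22) and the caudal factor gene Cdx1 by 0.95 (SE 0.22). The other direction was taken by Lef1, the DNA-binding partner of β-catenin, with 32.9, 42.9 and 33.5 against 269, 264 and 285 (−2.86, SE 0.18, adjusted p = 2.26e-10), by Cdx2 with 9.40, 15.5 and 13.4 against 43.1, 25.7 and 45.0 (−1.45, SE 0.28, adjusted p = 2.71e-04) and by T (Brachyury) with 110.4, 118 and 92.0 against 272, 256 and 257 (−1.29, SE 0.31, adjusted p = 0.00168). The receptor gene Fzd7 fell (−2.48, SE 0.13) and the adhesion receptor gene Cd44 (−4.69, SE 0.40). Notum, at 0.50 (adjusted p = 0.0117), and Znrf3, at −0.04, did not pass.

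Of 20 Wnt pathway components 3 were higher and 8 lower. Among 6 ligand genes 4 fell, Wnt3 (−4.07, SE 0.43) and Wnt7b (−5.09, SE 0.40), Wnt4 at a ratio of 137-fold (95% counting interval 37.6 to 1137), and Wnt8a to 0 in 2i/LIF, at least 38.8-fold. Gsk3b, the target of CHIR99021, rose from 926, 964 and 1001 to 1548, 1577 and 1628 (0.72, SE 0.09, adjusted p = 1.91e-06), and Ctnnb1, which encodes β-catenin, fell (−0.25, SE 0.08). Tcf7l1, the repressor of this pathway, lies on chromosome 6 and fell (−0.59, SE 0.15).

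**Figure D3:**
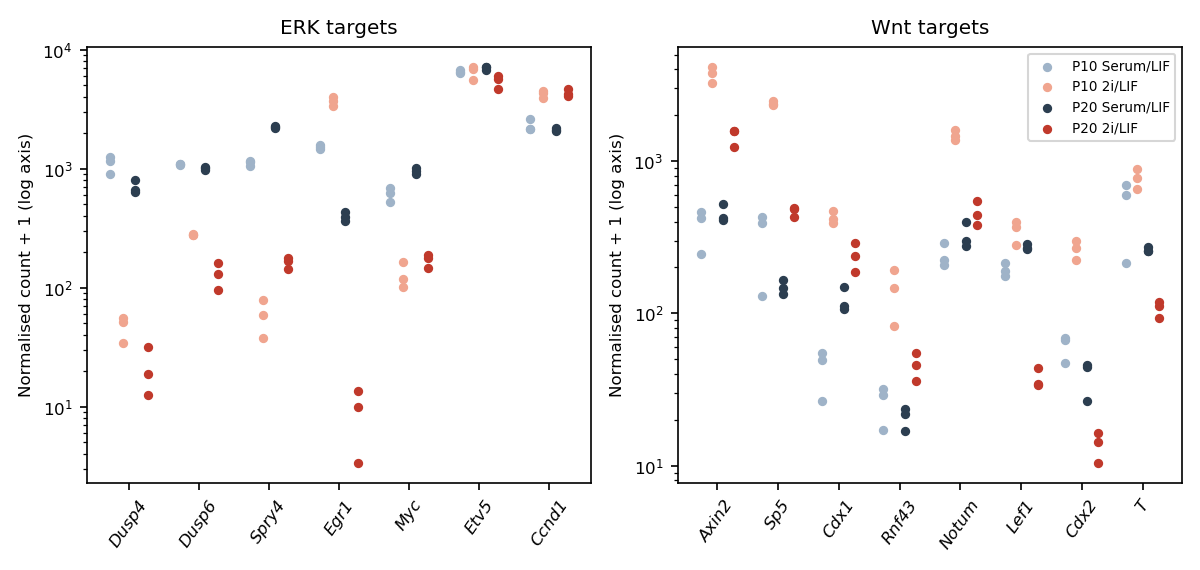
Normalised count plus 1 in each library (vertical axis, log scale) of 7 ERK target and 8 Wnt target genes (horizontal axis) in 2i/LIF and Serum/LIF at P10 and P20, 3 points per group. Dusp4, Spry4 and Myc are lower in 2i/LIF at both passages, Egr1 is lower in 2i/LIF at P20 and higher at P10, and Axin2 is higher in 2i/LIF at both.

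Naive pluripotency genes were split. Of 23 members, all tested, 10 were higher, 5 lower and 8 neither, with a median of 0.37. Tfcp2l1, a naive factor gene downstream of both LIF and Wnt (chr1:118627945-118685168), had 17135, 16311 and 17543 against 5203, 6087 and 5577 (1.60, SE 0.10, adjusted p = 2.79e-10), and Mitf had 1471, 1424 and 1418 against 218, 209 and 223 (2.73, SE 0.11, adjusted p = 8.15e-13). Nr5a2 rose by 1.00 (SE 0.11), Prdm14, a repressor of primed genes, by 0.97 (SE 0.13), Tbx3 by 0.63 (SE 0.08) and Nanog, on chromosome 6, by 0.51 (SE 0.11), of which 0.19 was left with that chromosome's median subtracted. The nuclear receptor gene Nr0b1 fell from 1715, 1571 and 1271 in Serum/LIF to 355, 405 and 346 in 2i/LIF (−2.04, SE 0.11, adjusted p = 2.48e-11), and Dppa2, a regulator of germline and 2-cell genes, from 1677, 1558 and 1806 to 242, 328 and 417 (−2.32, SE 0.16, adjusted p = 9.71e-10). Gbx2 fell (−1.86, SE 0.15), Dppa4 (−1.42, SE 0.09) and Klf5 (−0.91, SE 0.14). Klf4 (0.36, adjusted p = 0.0768), Klf2 (−0.04), Esrrb (0.11) and Zfp42 (0.07) did not pass. Klf4 did pass without 2i/LIF replicate 1, at 0.57, and with no filter on low counts, at 0.36. Dppa5a had 50323, 18219.8 and 20456 in 2i/LIF, a spread set by replicate 1, and 21720.0, 18719 and 18957 in Serum/LIF (adjusted p = 0.105).

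General pluripotency genes were lower or near even, with 7 of 12 lower and none higher (1 at an unadjusted p under 0.05, and none by DESeq2). Pou5f1, the gene of Oct4, had 18808, 17227 and 17469 against 19316, 17443 and 17038, a log2 fold change of −0.01 (SE 0.09, adjusted p = 0.950). Sox2 fell (−0.73, SE 0.07), Utf1 (−1.35, SE 0.19), and the let-7 inhibitor genes Lin28a and Lin28b (−1.16, SE 0.10, and −2.65, SE 0.20).

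Genes of the formative and primed epiblast, the state that ESCs enter when they leave the naive one, were lower for 18 of 21 tested members of a list of 22, with a median of −2.59. Pou3f1, the gene of Oct6 (chr4:124656807-124660655), had 2.35, 6.65 and 5.75 against 435, 416 and 398 (−6.18, SE 0.19, adjusted p = 3.60e-14). Grhl2, an epithelial factor gene, fell (−3.55, SE 0.16), Tcf15 (−3.03, SE 0.17), Sox4 (−2.95, SE 0.13), Fgf8 (−5.58, SE 0.65), Cldn6 (−2.99, SE 0.18) and the N-cadherin gene Cdh2 (−3.18, SE 0.22). The single member that rose was Lefty2 (0.53, SE 0.15), next to its paralogue Lefty1, which fell from 1493, 1277 and 1142 to 193, 293 and 152 (−2.59, SE 0.20, adjusted p = 5.01e-09). Otx2 had 209, 372 and 221 against 359, 347 and 278, groups that overlap (−0.26, adjusted p = 0.342), and Nodal had 0.15 (adjusted p = 0.228).

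Early lineage genes were mostly low in both media, and 16 of 24 could be tested, 3 higher and 6 lower. Gsc, a homeobox gene of the organiser, had 86.9, 82.8 and 125 against 5.25, 5.71 and 7.51 (3.99, SE 0.42, adjusted p = 2.50e-07), and Sox1, a neural gene on chromosome 8, 65.8, 94.6 and 92.9 against 46.2, 38.6 and 38.8 (1.07, SE 0.26, adjusted p = 0.00199). Sox11 fell (−3.83, SE 0.13), and Hand1 was lower at a ratio of 93.2-fold (95% counting interval 31.6 to 454), with 71.4, 70.7 and 181 in Serum/LIF.

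LIF signalling genes showed no common direction, with 4 of 14 higher and 5 lower. Stat3 rose from 1544, 1659 and 1679 to 2211, 2540.2 and 2458 (0.56, SE 0.07, adjusted p = 3.34e-06) and the receptor gene Lifr by 0.52 (SE 0.09), while Socs3, the direct STAT3 target, had 1424, 1254 and 1188 against 1521, 1484 and 1589 (−0.25, adjusted p = 0.115). Stat3 overlaps Stat5a, which rose by 0.88 (SE 0.23), on the opposite strand. Pim3 fell (−0.82, SE 0.14) and Cish (−1.34, SE 0.22).

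BMP and Id genes had 4 of 17 tested members of a list of 18 higher and 6 lower. Id1, a target through which serum BMP acts, had 94.0, 78.3 and 57.5 against 558, 439 and 517 (−2.77, SE 0.19, adjusted p = 7.52e-10), and Id2 fell (−3.78, SE 0.25), but Id4 rose by 1.48 (SE 0.18). The ligand gene Bmp4 fell (−2.01, SE 0.22) and Bmp7 rose by 1.34 (SE 0.18). The SMAD gene Smad9 had 141, 194 and 146 against 16.8, 7.86 and 18.8 (3.53, SE 0.44, adjusted p = 2.08e-06). In the Nodal list 3 of 15 were higher and 3 lower, or 20.0% each way, near the shares of all genes tested. Among them the SMAD gene Smad3 rose by 0.94 (SE 0.13) and the ligand gene Gdf3, on chromosome 6, by 1.25 (SE 0.09). The SMAD corepressor gene Skil fell (−2.32, SE 0.11).

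The serum response and actin list, which holds 8 transcription factor genes of the SRF, YAP and TEAD pathways and 24 cytoskeletal, secreted or membrane genes, had 18 of 32 members lower and 4 higher, with a median of −0.61. Thrombospondin Thbs1 (chr2:118111876-118127133) had 9.40, 0.739 and 1.92 against 957, 1034 and 1674 (−8.85, SE 0.35, adjusted p = 9.00e-13), the calponin gene Cnn1 was lower at a ratio of 219-fold (95% counting interval 38.9 to 8669) and the myosin light chain gene Myl9 at 238-fold (95% counting interval 42.4 to 9447). Cnn2 fell (−2.24, SE 0.10), the tropomyosin genes Tpm1 and Tpm2 (−1.91, SE 0.10, and −3.36, SE 0.20), and zyxin, Zyx, (−2.59, SE 0.18). The 2 cytoplasmic actin genes went opposite ways, Actb from 30289, 28746 and 28456 in Serum/LIF to 34529, 42830.1 and 42229 in 2i/LIF (0.45, SE 0.09, adjusted p = 2.59e-04) and Actg1 from 40063, 38569.6 and 40723 to 24335, 23984 and 23535 (−0.73, SE 0.10, adjusted p = 4.35e-06). Srf itself fell (−0.61, SE 0.09), Tead4, on chromosome 6, rose by 1.95 (SE 0.10), and Vcl, which encodes vinculin, had −0.16 (adjusted p = 0.180). Marker genes of fibroblasts, cells that express this programme strongly, moved the same way, and all 7 tested of 9 were lower (median −6.02, or −5.61 with Twist2, at 0 in 2i/LIF, at its bound). Col1a1, the collagen gene, had 49.3, 35.5 and 35.4 against 2808, 3083 and 5435 (−6.63, SE 0.27, adjusted p = 1.38e-12), and replicate 3 of Serum/LIF was the highest. The part of fibroblast-like cells in the fall of the actin genes was not tested.

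SRF binds the CArG box. In RefSeq promoter windows of GRCm38.p6, from 250 bases before to 50 bases after a gene start, a CArG box was found on either strand for 5 of the 25 list members with a window (20.0%), against 1.81% of 27025 genes. The stretches are printed because the list is named for this element, with the box in capitals and the gene's strand 5′ to 3′.
Myl9, chr2:156775292-156775323 (+): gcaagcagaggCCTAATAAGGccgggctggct
Cnn2, chr10:79988533-79988564 (+): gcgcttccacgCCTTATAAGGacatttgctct
Actg1, chr11:120348565-120348596 (-): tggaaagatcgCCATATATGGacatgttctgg
Vcl, chr14:20929160-20929191 (+): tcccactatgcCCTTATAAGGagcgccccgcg
Srf, chr17:46556224-46556255 (-): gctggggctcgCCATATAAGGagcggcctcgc
Srf, chr17:46556204-46556235 (-): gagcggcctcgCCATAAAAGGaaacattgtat
Myl9, Cnn2, Actg1 and Srf were lower in 2i/LIF and Vcl did not pass the test, so members with a box were not alike in size. The list was drawn up for this response, so a share above that of all genes says nothing about 2i/LIF. A match describes these letters alone, and no binding was measured here.

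DNA methylation genes went both ways, 5 of 18 higher and 5 lower, or 27.8% each, against 21.0% and 23.2% of all genes tested. All 3 genes of the de novo methyltransferase complex fell. Dnmt3a (chr12:3806007-3914443) had 261, 298 and 239 against 2205, 2174 and 2699 (−3.14, SE 0.16, adjusted p = 2.48e-11), Dnmt3b had 1194, 1623 and 1431 against 6235, 6161 and 5639 (−2.08, SE 0.13, adjusted p = 2.92e-10), and Dnmt3l fell (−1.63, SE 0.27). The maintenance genes rose, Uhrf1 from 5906, 6129 and 5611 to 11891, 14150.1 and 14032 (1.18, SE 0.08, adjusted p = 6.87e-10) and Dnmt1 by 0.42 (SE 0.06). Tet1 fell (−0.60, SE 0.17), and the H3K9 methyltransferase gene Setdb1 rose by 0.80 (SE 0.07). Methylation itself was not measured in these libraries.

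Germline genes, many of which are silenced by promoter methylation in somatic cells, had 9 of 35 tested members of a list of 39 higher and 13 lower. Dazl, a germ cell RNA-binding protein gene, had 778, 674 and 1451 against 121, 131 and 141 (2.89, SE 0.29, adjusted p = 1.26e-07), the immunophilin gene Fkbp6 rose by 3.60 (SE 0.25), and Asz1, on chromosome 6, rose by 3.05 (SE 0.54). Meiosis genes were lower for 7 of 11 tested, with Sycp3 falling (−1.97, SE 0.17), Stra8 (−2.98, SE 0.47) and Dmc1 (−2.58, SE 0.28). Mael, of the piRNA pathway, had 11.7, 10.3 and 12.5 against 174, 175 and 201 (−3.99, SE 0.23, adjusted p = 1.09e-10), and the helicase gene Ddx4 fell (−2.28, SE 0.16).

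Imprinted genes, expressed from 1 parental copy, were lower for 17 of 31 tested members of a list of 33 and higher for 6, with a median of −1.21. At the H19 and Igf2 locus both genes, which are read from opposite parental copies, were nearly off. Igf2 (chr7:142650766-142666816) had 4.70, 1.48 and 10.5 against 1506, 1705 and 3788 (−8.73, SE 0.50, adjusted p = 9.15e-11), with replicate 3 of Serum/LIF highest as for H19. The growth inhibitor gene Cdkn1c had 61.1, 45.1 and 40.2 against 958, 837 and 929.8 (−4.29, SE 0.14, adjusted p = 1.12e-13), Phlda2 fell (−4.05, SE 0.31), Grb10 (−3.76, SE 0.16) and Peg3 (−1.98, SE 0.14). Peg10, on chromosome 6, had 421, 703 and 958 against 12773, 14754 and 19215 (−4.46, SE 0.27, adjusted p = 1.58e-10). The largest rise was Plagl1, with 1722, 1646 and 1560.4 against 175, 186 and 200.2 (3.13, SE 0.15, adjusted p = 5.73e-12). Meg3, Rian and Mirg, 3 noncoding RNAs of 1 maternal cluster on chromosome 12, rose by 0.49 (SE 0.09), 0.43 (SE 0.12) and 0.77 (SE 0.09), and the paternally expressed Dlk1 of the same cluster fell (−5.98, SE 0.42). Allele-specific reads were not used, so loss or gain of an imprint was not tested.

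Among the 34 lists, cholesterol synthesis had the largest share of members higher, 23 of 26 (median 0.85, lowest 0.02). No member was lower by edgeR or DESeq2, nor at an unadjusted p under 0.05. Of 20 enzyme genes 18 rose. Msmo1, a sterol demethylase on chromosome 8 (chr8:64718139-64733792), had 3663, 2917 and 2919.6 against 1165, 1106 and 1014 (1.53, SE 0.13, adjusted p = 1.08e-08), Cyp51 had 2472, 2135 and 1949 against 939, 955 and 967 (1.19, SE 0.11, adjusted p = 2.71e-08) and Fdps, which makes farnesyl diphosphate, 5731, 4121 and 4209 against 2389, 2029 and 2296 (1.06, SE 0.17, adjusted p = 2.92e-05). Hmgcs1, an early enzyme of the pathway, rose by 0.43 (SE 0.07), Sqle by 0.81 (SE 0.07) and Dhcr7 by 1.14 (SE 0.10), while Idi1 had 0.02 (adjusted p = 0.819) and Sc5d 0.30 (adjusted p = 0.0237). Of 6 genes of regulation and uptake 5 rose. The sterol sensor gene Insig1 had 3835, 3942 and 3586 against 1441, 1411 and 1393 (1.42, SE 0.10, adjusted p = 1.31e-09), and the master regulator Srebf2 rose by 0.49 (SE 0.07). Without its 2 members on chromosomes 6 and 8 the median of the list was 0.81.

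Fatty acid synthesis rose with it, 11 of 14 members higher and, by edgeR, DESeq2 or an unadjusted p under 0.05, none lower (median 0.74). Scd1, the stearoyl-CoA desaturase gene (chr19:44394455-44407879), had 7371, 8917 and 8783 against 1406, 1513 and 1694 (2.44, SE 0.11, adjusted p = 2.70e-12), and Scd2 had 30707, 32284 and 32802 against 9867, 10552 and 10662 (1.62, SE 0.07, adjusted p = 2.97e-12). Malic enzyme Me1, a source of NADPH, rose by 2.10 (SE 0.08), the desaturase genes Fads2 and Fads1 by 1.93 (SE 0.08) and 1.38 (SE 0.11), the regulator Srebf1 by 1.72 (SE 0.07) and fatty acid synthase, Fasn, by 0.65 (SE 0.08). Acaca had 0.20 (adjusted p = 0.10). Fatty acid oxidation was mixed, 5 of 17 higher and 3 lower, with Slc25a20, the carnitine carrier, rising by 1.16 (SE 0.12) and Cpt1a, the entry step, by 0.89 (SE 0.12), and Acadvl falling (−0.71, SE 0.14).

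Glycolysis genes were lower for 15 of 30 members and higher for 2, with a median of −0.53. The glucose transporter gene Slc2a1 (chr4:119108711-119137983) had 4342, 4559 and 2662 against 11047, 11175 and 11079.5 (−1.53, SE 0.13, adjusted p = 2.03e-08), phosphofructokinase Pfkl 2878, 3037 and 1684 against 7434, 7302 and 6518 (−1.49, SE 0.19, adjusted p = 3.04e-06) and the lactate exporter Slc16a3 949, 1111 and 349 against 2957, 2868 and 3098 (−1.90, SE 0.27, adjusted p = 1.05e-05). In each of these 3 genes replicate 3 of 2i/LIF was the lowest, and the media did not overlap. Ldha fell (−1.04, SE 0.15), Pgk1 (−1.08, SE 0.15), Pfkfb3 (−1.83, SE 0.23), Eno1 (−0.76, SE 0.14), and Pdk4, a brake on pyruvate oxidation, (−2.51, SE 0.24). The 2 that rose were isoform genes, hexokinase Hk1, from 1010.5, 1027 and 881 to 3534, 3618 and 3167 (1.82, SE 0.09, adjusted p = 6.51e-12), and Ldhb, on chromosome 6, by 1.00 (SE 0.12). Genes of the mitochondrial genome had no difference that passed for any of 13 members (median 0.03), with 0 also by DESeq2 and at an unadjusted p under 0.05, but they were spread in 2i/LIF, mt-Co1 standing at 53730.1, 124774 and 145199 against 123008, 120194 and 119817 and lowest in replicate 1. Sirtuin and NAD synthesis genes had 2 of 12 higher and 3 lower. Of the 7 sirtuin genes 2 were higher and 1, Sirt5, lower (−1.50, SE 0.22), with a median of 0.25. Of the 5 NAD synthesis genes 0 were higher and 2 lower, Nampt among them (−0.44, SE 0.09). The lowest fitted value of the list was −6.64.

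Targets of ATF4, the factor of the integrated stress and amino acid response, with serine and one-carbon enzymes, had 12 of 27 members higher and 4 lower (median 0.28, or 0.14 without chromosomes 6 and 8). Asns, asparagine synthetase, on chromosome 6 (chr6:7675169-7693254), had 13526, 13649 and 14092 against 5064, 5011 and 5383 (1.42, SE 0.07, adjusted p = 2.35e-11). Nupr1, a stress factor gene (chr7:126623249-126630861), had 907, 743 and 603 against 184, 179 and 228 (1.93, SE 0.18, adjusted p = 4.39e-08), and the amino acid transporter gene Slc7a5, on chromosome 8, 7486, 9048 and 6480.1 against 3959, 3779.9 and 3754 (1.00, SE 0.10, adjusted p = 9.74e-08). Atf4 rose by 0.46 (SE 0.06), Slc7a1 by 1.16 (SE 0.09) and Gcat, of threonine breakdown, by 1.31 (SE 0.09). Gldc, of glycine cleavage, fell (−1.83, SE 0.14), Cebpb (−1.82, SE 0.27), Ddit4 (−0.81, SE 0.15) and Ddit3 (−0.67, SE 0.18). The serine synthesis genes Phgdh (−0.41), Psat1 (0.11) and Psph (−0.28) did not pass.

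The element TGATGNAA, bound by ATF4 with a C/EBP partner, was found on either strand in the promoter windows of 5 of 22 list members with a window (22.7%), against 4.51% of 27025 genes. They are shown for the same reason, with the element in capitals on the gene's strand 5′ to 3′, so that a match on the other strand reads as its reverse complement.
Asns, chr6:7693214-7693243 (-): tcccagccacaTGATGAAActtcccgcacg
Nupr1, chr7:126625562-126625591 (-): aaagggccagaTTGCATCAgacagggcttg
Chac1, chr2:119351038-119351067 (+): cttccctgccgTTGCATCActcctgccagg
Trib3, chr2:152344028-152344057 (-): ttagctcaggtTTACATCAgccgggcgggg
Slc7a11, chr3:50443661-50443690 (-): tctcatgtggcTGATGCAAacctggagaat
Slc7a11, chr3:50443642-50443671 (-): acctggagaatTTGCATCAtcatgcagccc
Of these genes Asns, Nupr1 and Trib3 (0.48, SE 0.14) were higher in 2i/LIF, while Chac1, at 162, 249 and 158 against 279, 256 and 304 (−0.54, adjusted p = 0.0298), and the cystine transporter gene Slc7a11, at 39.9, 49.5 and 27.8 against 11.6, 15.7 and 16.3 (1.42, adjusted p = 0.0343), did not pass. Chac1 passed without 2i/LIF replicate 2 (−0.81) and with thinned libraries (−0.65). Slc7a11 passed with no filter on low counts (1.42) and with the 2 groups alone (1.41). As with the CArG box, the list was drawn up for targets of the factor, so its higher share says nothing about 2i/LIF. The matches are a description of sequence and not of ATF4 binding.

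G1 cyclins, their kinases and inhibitors had 9 of 17 higher and 5 lower. Cdkn2a, the p16 and p19ARF locus (chr4:89274471-89294653), had 1008, 661 and 527 against 85.1, 83.6 and 138 (2.84, SE 0.27, adjusted p = 6.80e-08), and Cdkn1a, the p21 gene, 2491, 2853 and 2738 against 893, 905 and 1016 (1.53, SE 0.08, adjusted p = 3.82e-11). Cdk2 rose by 1.11 (SE 0.08). Ccnd2, on chromosome 6, fell (−3.68, SE 0.27), Ccne1 (−1.0, SE 0.09) and the retinoblastoma gene Rb1 (−1.29, SE 0.18). Targets of p53 had 7 of 20 higher and 5 lower, with Gdf15, on chromosome 8, rising by 1.92 (SE 0.21) and Btg2 by 0.93 (SE 0.09), and Perp falling (−3.73, SE 0.17) and Mdm2 (−0.43, SE 0.09).

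Among 28 tested apoptosis genes of a list of 29, 10 were higher and 9 lower (median 0.25, or −0.03 without chromosomes 6 and 8). The BH3-only genes Pmaip1, with 58.7, 31.0 and 32.6 against 398, 384 and 345 (−3.35, SE 0.18, adjusted p = 3.84e-11), and Bcl2l11, the gene of Bim, with 72.8, 126 and 99.6 against 695, 784 and 828 (−2.88, SE 0.16, adjusted p = 8.62e-11), fell, as did Bmf (−2.18, SE 0.16) and Bbc3 (−1.02, SE 0.12). Of the inhibitors Bcl2 fell (−3.06, SE 0.42) and Mcl1 (−1.04, SE 0.06). Bid and the death receptor gene Tnfrsf1a, both on chromosome 6, rose by 1.36 (SE 0.09) and 1.79 (SE 0.22), and Casp9 by 1.12 (SE 0.12).

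Extraembryonic genes were more often lower than higher. For primitive endoderm 10 of 20 were lower and 4 higher (median −1.26, or −0.74 without chromosomes 6 and 8), with Gata6 falling (−2.22, SE 0.51), Sox7 (−3.04, SE 0.49) and the laminin gene Lamb1 (−2.67, SE 0.21), against a rise of Hnf4a from 36.8, 35.7 and 40.0 to 110.4, 101 and 148 (1.69, SE 0.29, adjusted p = 7.06e-05). The collagen genes Col4a1 and Col4a2, which overlap each other on chromosome 8, fell (−2.75, SE 0.18, and −3.46, SE 0.28). Of the 8 basement membrane genes of this list, however, 3 were higher and 3 lower, with a median of 0.32. For trophectoderm 10 of 14 tested members of a list of 16 were lower and 2 higher. Krt18 fell from 1463, 1514 and 2251 to 134, 90.9 and 92.9 (−4.10, SE 0.21, adjusted p = 1.90e-11), while Tfap2a rose from 11.6, 17.9 and 11.3 to 345, 417 and 359 (4.73, SE 0.22, adjusted p = 5.73e-12).

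Genes of the 2-cell embryo, transcribed in rare ESCs at any time, were lower for 6 of 8 tested members of a list of 13 and higher for 1 (median −3.93). Zscan4c had 0, 0.739 and 9.58 against 174, 208 and 383 (−5.98, SE 0.83, adjusted p = 6.88e-06), Zscan4d fell (−4.30, SE 0.62) and Gm6763 was at 0 in 2i/LIF, at least 115-fold lower. Zfp809 rose by 0.76 (SE 0.11). Most of the genes that fell belong to multigene families, where the split of reads between copies is uncertain, and replicate 3 of Serum/LIF was the highest in each of the 3 named. MHC class I and immunoproteasome genes were lower for 10 of 18 and higher for 2 (median −1.40). H2-K1 had 301, 269.7 and 264 against 692, 641 and 713 (−1.30, SE 0.16, adjusted p = 2.08e-06), the peptide transporter gene Tap2 fell (−4.88, SE 0.48), Psmb8 was lower at a ratio of 103-fold (95% counting interval 34.9 to 501), and B2m had −0.37 (adjusted p = 0.0480). B2m passed without 2i/LIF replicate 3, at −0.65.

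Among the other lists, Polycomb genes had 5 of 15 higher and 3 lower. Bmi1, a PRC1 subunit gene (chr2:18677018-18686629), had 606, 532 and 579.5 against 80.9, 105 and 73.8 (2.70, SE 0.13, adjusted p = 9.39e-12), and the PRC2 cofactor genes Jarid2 and Phf19 fell (−1.17, SE 0.06, and −2.29, SE 0.24). Cell adhesion and EMT genes had 3 of 15 higher and 8 lower, with Epcam falling from 2553, 2336 and 2219 to 489, 550.5 and 533 (−2.17, SE 0.10, adjusted p = 3.82e-12) and fibronectin, Fn1, rising by 0.85 (SE 0.16). Retinoic acid response genes had 1 of 13 tested members of a list of 16 higher and 6 lower, the receptor gene Rarg falling (−2.42, SE 0.10) and Meis2 rising from 15.8, 20.7 and 28.8 to 296, 401 and 558 (4.30, SE 0.34, adjusted p = 6.58e-09). Iron, zinc and metallothionein genes had 7 of 14 higher and 2 lower. The metallothionein genes Mt1 and Mt2, near-identical neighbours on chromosome 8, rose by 2.22 (SE 0.17) and 2.05 (SE 0.11), well above that chromosome's median of 0.45, and ferroportin, Slc40a1, fell (−2.64, SE 0.21).

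**Figure D4:**
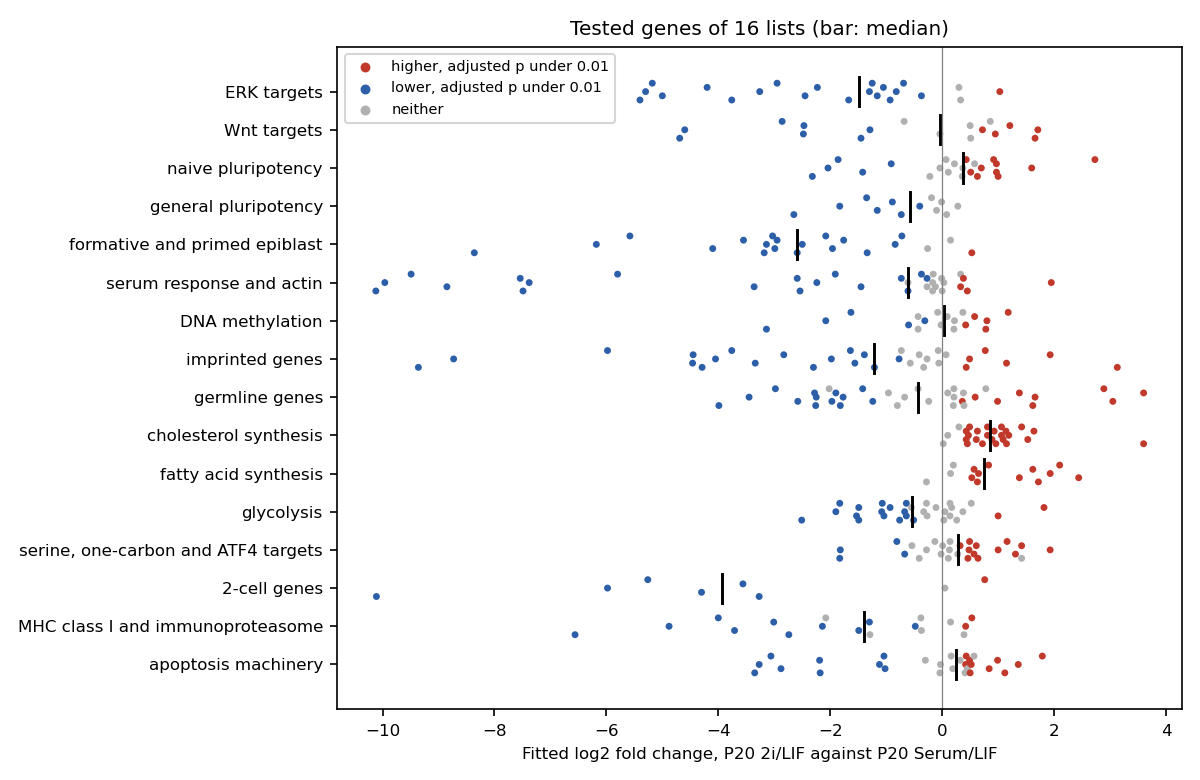
Fitted log2 fold change of 2i/LIF over Serum/LIF at P20 (horizontal axis) for the tested members of 16 of the gene lists (vertical axis), each point a gene, coloured by direction where the adjusted p was under 0.01, and each bar a list median. Cholesterol and fatty acid synthesis genes lie above 0 but for 1 gene, most ERK target and formative genes below it, and the fitted values of genes at 0 in a medium depend on the prior count.

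The difference between the media was not the same at P20 as at P10. The test of the difference itself, the P20 log2 fold change minus that at P10, called 511 genes (3.18% of 16054) as more positive at P20 and 985 (6.14%) as more negative, 9.32% together. By adjusted p alone these were 1471 (9.16%) and 1745 (10.9%), 20.0% together. The P10 and P20 comparisons share no library, but deviations of same-numbered P10 and P20 libraries of 2i/LIF from their group means correlated at 0.134 to 0.299, so the passages may not be independent. With medium and replicate number as a block, 579 genes were more positive and 1062 more negative. On chromosome 8 the median of this difference was 0.39 and on chromosome 6 it was 0.17, against −0.05 over all genes.

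Several lists had shares above these in 1 direction. Of the cholesterol members 20 of 26 were more positive at P20 and none more negative, and the list's own median had been 0.03 at P10. Msmo1 stood at −0.10 on the log2 scale at P10 and differed by 1.63 (SE 0.18, adjusted p = 5.00e-06), Fdps had −0.42 at P10 and differed by 1.48 (SE 0.24, adjusted p = 1.69e-04). Of the ATF4 and serine members 14 of 27 were more positive at P20 and 1 more negative, from a median of −0.52 at P10. Chac1 had 22.0, 10.2 and 30.1 in 2i/LIF and 211, 231 and 208 in Serum/LIF at P10, a difference from P20 of 2.76 (SE 0.33, adjusted p = 1.23e-05), and for Nupr1 the change was 1.97 (SE 0.26, adjusted p = 3.16e-05). Naive genes went the other way, 10 of 23 more negative at P20 and none more positive (2 at an unadjusted p under 0.05, 1 by DESeq2), from a median of 0.65 at P10. Nr0b1 had 0.08 at P10 and Gbx2 0.87, and the changes to P20 were −2.11 (SE 0.15, adjusted p = 3.24e-08) and −2.73 (SE 0.21, adjusted p = 1.18e-07). Wnt targets had 9 of 17 more negative and none more positive, from a median of 0.86 at P10 with 11 members higher and 4 lower. Axin2 changed from 3.30 to 1.71, a difference of −1.59 (SE 0.25, adjusted p = 1.44e-04). The differences of Cdx1, Lef1 and Notum were −2.35 (SE 0.33, adjusted p = 5.24e-05), −3.72 (SE 0.23, adjusted p = 8.52e-09) and −2.12 (SE 0.22, adjusted p = 3.85e-06).

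Some genes reversed or lost their difference. Egr1 had 3720.0, 3969 and 3383 normalised counts in 2i/LIF and 1448, 1580.4 and 1514 in Serum/LIF at P10, a log2 fold change of 1.28, so its direction at P20 was the opposite, a difference of −6.69 (SE 0.25, adjusted p = 1.16e-11). Egr1 was thus higher at P10 than at P20 in both media, and so were the immediate early genes Fos and Fosb. Fos had 3703, 3154 and 1702 in 2i/LIF and 2469.9, 2809.6 and 1998 in Serum/LIF at P10, against 14.1, 22.9 and 27.8 and 58.8, 60.0 and 51.3 at P20. Fosb had 1278, 1099 and 655 and 2300.2, 2753 and 2308 at P10, against 7.05, 9.61 and 7.66 and 26.3, 28.6 and 26.3 at P20. Ier2 had 1767, 1233 and 983 in 2i/LIF and 1703, 1600.3 and 1489 in Serum/LIF at P10, against 2061, 1631 and 1358 and 1454, 1233 and 1310.2 at P20, where the passages overlapped in 2i/LIF and P10 was slightly higher in Serum/LIF. The part of this gap between passages in the Egr1 difference was not tested. Of 22 ERK targets 7, Egr1 among them, were more negative at P20 and 1 was more positive. Socs3 had −3.54 at P10 and changed by 3.29 (SE 0.20, adjusted p = 8.52e-09). Among called genes with a symbol that is not a clone or a Gm, Rik or BC number, a mean of at least 50 normalised counts in 1 medium at P20 and no overlap of the media there, the largest changes in the positive direction were of the X-linked DXBay18 (7.89 (SE 1.87, adjusted p = 0.00696), a fitted value that depends on the prior count, since P10 2i/LIF was at 0), whose own P20 difference did not pass (adjusted p = 0.0166), of Ahrr, the repressor of the aryl hydrocarbon receptor (4.91, SE 0.65, adjusted p = 3.09e-05), of Foxn4 (4.45, SE 0.58, adjusted p = 2.67e-05, a smaller fall, from −6.22 at P10 to −1.76 at P20), of Cldn7 (3.78, SE 0.21, adjusted p = 4.30e-09) and of Sema6a (3.75, SE 0.23, adjusted p = 8.52e-09). The largest the other way among them, beside Egr1, were of 2-cell genes, Zscan4b (−9.68, SE 1.98, adjusted p = 0.00164), Duxbl2 (−8.78, SE 2.00, adjusted p = 0.00350), Zscan4-ps3 (−7.98, SE 1.01, adjusted p = 2.14e-05) and Zscan4a (−7.88, SE 1.04, adjusted p = 2.94e-05). Gm6763, left out by that rule, had −20.44, a fitted value that depends on the prior count, as do those of Zscan4b and Duxbl2, with 0, 253 and 224 in 2i/LIF and 0, 0 and 0 in Serum/LIF at P10. Zscan4a had 39.2, 34.9 and 142 in 2i/LIF and 52.1, 42.7 and 93.7 in Serum/LIF at P10, where the media overlapped, and 0, 0.739 and 0.958 against 122, 101 and 268 at P20. The 2-cell list had 6 of 8 tested members more negative at P20.

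**Figure D5:**
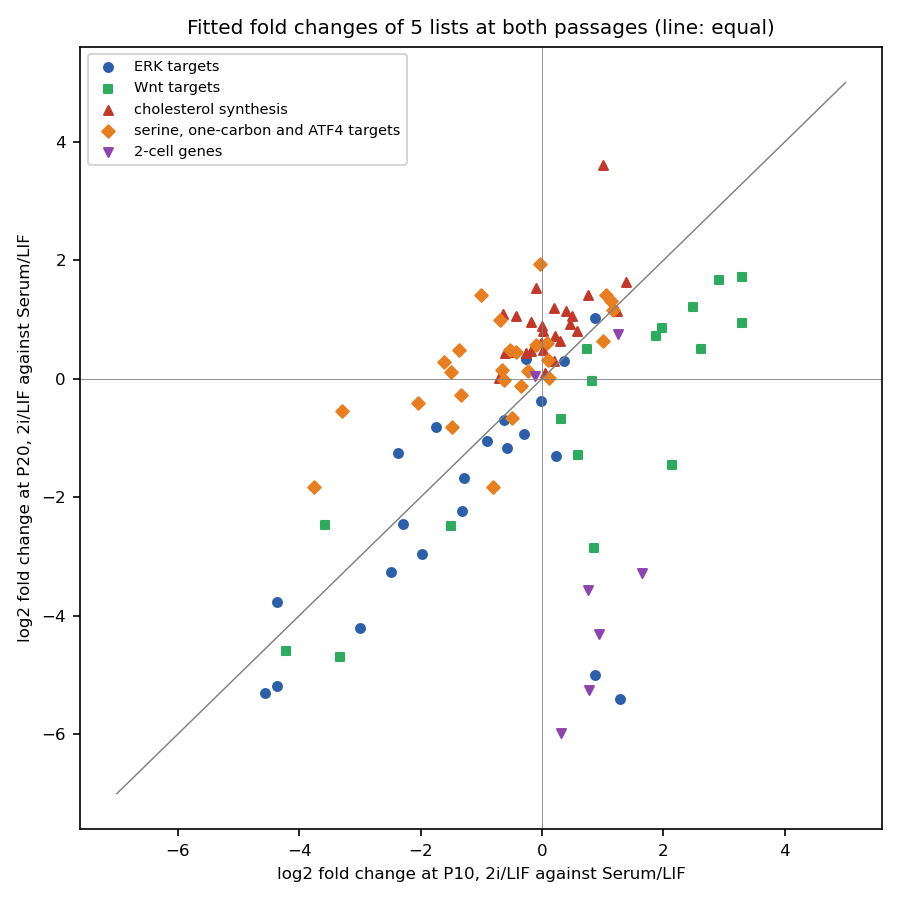
Fitted log2 fold change of 2i/LIF over Serum/LIF at P10 (horizontal axis) and at P20 (vertical axis) for the tested members of 5 gene lists, each point a gene, with a line where both are equal. Most cholesterol synthesis genes lie above the line and most Wnt target genes below it, and genes with a log2 fold change of 10 or more in size are left out.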

How the data were processed

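RNA-seq was done on cultures of E14tg2a ESCs. The passage table holds 18 columns of estimated counts per gene as the authors deposited them. The submitters' processing notes name Salmon, STAR, featureCounts, DESeq2 and mm10, and the study's methods name STAR with HTSeq, without a statement of which made this table or of the strand setting. Of the named genes 51 overlap another tested gene, 40 of them on the opposite strand, and the split of reads there is uncertain. They include Fgfr2, Ctnnb1, Gbx2, Bmp4, Dnmt3l, Setdb1, Sycp3, Grhl2, Tbx3, Zyx, Igf2, Srebf1, Cyp51, Rb1, Cdk2, Casp9, Bid, Braf, Cebpb, Ddit3, Slc7a5, Notum, Fn1, Acadvl, Nkx1-2, Sox2, Tet1, Tcf7l1 and Srebf2, beside those named with their partner. Since 9.982% of values were not whole, counts were rounded. The time-course table of the series was not used, and some list members and named genes are counted but not reported by name here.

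Genes that passed edgeR's filterByExpr by group (16054 of 55487) were fitted with all 18 libraries and 1 mean per group (edgeR 4.0.16, TMM, quasi-likelihood test, Benjamini-Hochberg adjustment over all of them, R 4.3.3). Calls used the study's thresholds, a log2 fold change past 1 or −1 and an adjusted p under 0.01. The change between passages was a contrast in the same fit. Normalised counts are counts divided by the effective library size times its mean. A group at 0 was set to a floor of 3 counts over the group, and ratios with 1 to 3 counts have exact 95% intervals. Intervals and floors cover counting error only.

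The 34 gene lists (641 of 642 genes found in the table), the libraries compared and the tests were chosen with earlier results of these data known. The text names list members (at most 6 of a list with all their values), the 12 largest rises and falls with a symbol, no overlap between media and a mean of at least 50 normalised counts in 1 group, the 5 largest changes in each direction between passages by the same rule, and the 5 most abundant genes of chromosomes 6 and 8. Promoter windows were matched by symbol in RefSeq (GRCm38.p6). Python 3.11.15, SciPy 1.17.1, pandas 2.3.3, NumPy 2.4.6 and matplotlib 3.10.9 did the rest. Tested on simulated data for this comparison (15323 genes, 200 of them changed), the fit recovered 168 and made 1 false call. The simulated counts took their spread from the fit itself, with few changed genes and no shift of whole chromosomes. They check that the fit runs as meant and do not give its error rate in these data. Replicates differed by more than sampling noise (chi-square per degree of freedom 3.43 to 57.6), so none was merged. The highest values, 57.6 and 49.6, were of the pairs with P20 2i/LIF replicate 1, against 4.51 to 7.76 between P20 Serum/LIF libraries. The spread of a gene was fitted over all 18 libraries, so it can be too small for P20 2i/LIF. Alternatives were other scalings (DESeq2 1.42.0 size factors, library totals, TMM without chromosomes 6 and 8), filters, thresholds, the DESeq2 Wald test, the 2 groups alone, a replicate block, a block of medium and replicate number across the passages, thinned libraries, single libraries left out and chromosome medians subtracted.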

Additional observations from a re-analysis of the deposited data

Results flagged for a closer look

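The difference between 2i/LIF and Serum/LIF changed from P10 to P20 for 511 genes in the positive direction and 985 in the negative one, by edgeR's test of the change itself (adjusted p under 0.01, change past 1 or −1 on the log2 scale). The values below are that change, the P20 log2 fold change minus the P10 one, for genes named in the text. For Rgs17, Zscan4b, Duxbl2 and Gm6763, at 0 in every P20 2i/LIF library, and DXBay18, at 0 in every P10 2i/LIF library, the value depends on the prior count of the fit and is not a bound. A negative change can be a new fall, a deeper fall or a smaller rise, and a positive one a new rise, a larger rise or a smaller fall. Krt18, Cnn2, Tpm1, Col4a1, H2-K1, Lin28a, Utf1 and Phf19 changed in the positive direction but were still lower in 2i/LIF at P20. So were Foxn4, Tdgf1, Id1, Cish, Cebpb, Cyp1b1 and Sycp3.

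Among signalling genes, the Wnt targets Apcdd1 (−1.15), Axin2 (−1.59), Cdx1 (−2.35), Cdx2 (−3.59), Lef1 (−3.72), Notum (−2.12) and T (−1.89) changed in the negative direction. So did the ERK targets Dusp5 (−1.21), Egr1 (−6.69) and Fos (−1.52), the FGF receptor gene Fgfr2 (−1.57), the G protein regulator gene Rgs17 (−5.84) and the ligand genes Bmp4 (−1.78), Bmp7 (−1.22) and Lefty1 (−2.68), with Id4 (−1.38). In the positive direction were Fgfr1 (1.23), Id1 (2.10), Socs3 (3.29), Cish (1.91) and Sema6a (3.75). Of the pluripotency and epiblast genes, Dppa2 (−1.37), Gbx2 (−2.73), Nr0b1 (−2.11) and Cdh2 (−1.54) changed in the negative direction and Tdgf1 (1.79), Lin28a (1.13), Utf1 (1.15) and Otx2 (2.12) in the positive one.

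By adjusted p alone, 20 of 26 cholesterol synthesis genes, 7 of 14 fatty acid synthesis genes (1 more negative) and 14 of 27 serine, one-carbon and ATF4 genes (1 more negative) were more positive at P20. Of 30 glycolysis genes 3 were more positive and 4 more negative, and of 17 fatty acid oxidation genes 1 and 3. Named ones were the lipid genes Msmo1 (1.63), Fdps (1.48) and Fads2 (1.18) and the amino acid and ATF4 genes Aars (1.68), Chac1 (2.76), Nupr1 (1.97), Phgdh (1.64), Psat1 (1.61), Psph (1.05), Slc7a5 (1.69), Trib3 (1.85) and Cebpb (1.93), while Gldc (−1.01), Cpt1a (−1.28) and Pdk4 (−3.69) and the mitochondrial mt-Co1 (−1.62) were more negative. Aryl hydrocarbon receptor genes Ahrr (4.91), Cyp1a1 (3.12) and Cyp1b1 (2.98) were more positive, and the receptor gene Ahr (−1.54) was more negative. By adjusted p alone, in the serum response and actin list 10 of 32 were more positive and 2 more negative, with Actb (1.06), Cnn2 (2.06), Tpm1 (1.22) and Tead4 (1.07) among the former. In the cell adhesion and EMT list 6 of 15 were more positive and 5 more negative. Krt18 (2.02), Cldn7 (3.78), Col4a1 (2.02), Tubb3 (2.14) and Mal (3.02) were more positive.

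The 2-cell genes Zscan4a (−7.88), Zscan4b (−9.68), Zscan4c (−6.29), Zscan4d (−5.24), Zscan4-ps3 (−7.98), Duxbl2 (−8.78) and Gm6763 (−20.44) were more negative. The imprinted genes Cdkn1c (−1.57), Grb10 (−1.21), Peg10 (−1.24) and Phlda2 (−2.74), the methyltransferase gene Dnmt3a (−1.08), the meiosis genes Dmc1 (−1.69) and Stra8 (−2.89) and the cycle and apoptosis genes Ccnd2 (−2.10), Cdkn1a (−1.02), Rb1 (−1.07) and Bmf (−1.14) were more negative, as was Hnf4a (−1.76). Positive changes were those of Sycp3 (1.10), Phf19 (2.08), H2-K1 (1.90), Foxn4 (4.45) and DXBay18 (7.89).

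Outside the 2 media compared, the P20 EMM libraries also had chromosome 8 medians above those of P20 Serum/LIF, at 0.19, 0.12 and 0.11 on the log2 scale, where the P20 Serum/LIF libraries had an SD of 0.00648 around 0. The P10 EMM and P10 Serum/LIF libraries were also above 0 on this scale, at 0.08, 0.07 and 0.14 and at 0.06 in all 3, so the P20 and P10 EMM values overlapped. The P20 EMM libraries lay below those of P20 2i/LIF, and on chromosome 6 they were at −0.02, −0.01 and 0.01. Groups of 3 libraries are too small for a test of single outlying libraries.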

How the results depend on the processing

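The counts of called genes kept within 1.5 times their value except as follows. Asking for at least 10 counts in every library gave 718 higher, 1000 lower and 644 with a more negative difference at P20, and called 2 of the 24 largest changes, since genes near 0 in a medium are then not tested. Without a fold threshold 3366 were higher, and 1471 and 1745 had changed between the passages. The chromosome 6 median moved to 0.21 with library totals alone, 0.00 with no filter and 0.46 over genes above the median level. That of chromosome 8 moved to 0.43 with DESeq2 size factors or the DESeq2 Wald test, 0.33 with library totals alone, 0.48 with TMM computed without the genes of these chromosomes, 0.19 with no filter, 0.43 without 2i/LIF replicate 1 and Serum/LIF replicate 3 together (chosen after seeing the data) and 0.54 over genes above the median level. Leaving out single libraries gave 0.42 to 0.46 for it, 981 to 1064 genes higher, 2284 to 2441 lower, 367 to 696 and 763 to 1201 changed between the passages, the highest of both without P10 2i/LIF replicate 1, and 139 to 169 list members higher and 215 to 227 lower, against 164 and 232 with all. Library totals alone moved the median of all genes from −0.01 to −0.12.

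Replicate numbers are shared by the media, but the labels do not say what they mark. Deviations of same-numbered P20 libraries of the 2 media from their group means correlated at 0.0586 to 0.0740, and other pairs at −0.0607 to 0.00317, so each library correlated best with its own number in all 3 pairs, a hint from the data only. The P20 EMM libraries did not share it. Their same-numbered pairs were at −0.0960 to −0.0039 with P20 Serum/LIF and at −0.0268 to −0.0153 with P20 2i/LIF. With the replicate block 1058 genes were higher and 2466 lower, and of the named genes 2, Apcdd1 and Ctnnb1, lost their call and Ahr (−0.48) gained one. It gave 499 and 945 changes between the passages. Across passages, same-numbered libraries correlated at 0.134 to 0.299 in 2i/LIF (other pairs −0.245 to 0.052) and at 0.0124 to 0.0678 in Serum/LIF (−0.0471 to 0.0174). The fit with medium and number together as a block, chosen after seeing the data, gave 579 and 1062, and all 83 named genes called in that test still passed.

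Of 4675 values of 279 named genes under these settings, 4531 kept their direction and side of the threshold, 109 lost the call and 34 gained one. Tubb3 reversed, to −0.05, with its chromosome's median subtracted. Among the 19 genes that lost the call without a single library, Cdx1 (0.80 to 1.11) did so without Serum/LIF replicate 2, Cyp1b1 (−2.57 to −1.17, the latter also without 2i/LIF replicate 1) without Serum/LIF replicate 3, Gata6 (−2.44 to −2.01) without 2i/LIF replicate 2 and T (−1.40 to −1.18) without 2i/LIF replicate 3, and the others without 2 to 6 libraries in turn. The cause of these moves was not tested. List medians moved by more than the spread between libraries in 98 of 612 cases. Genes at 0 in a medium have lower bounds only, and 2i/LIF replicate 1, with the fewest counts, limits genes near the floor.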

Other observations

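Genes that respond to the aryl hydrocarbon receptor, a ligand-activated factor that senses xenobiotics and tryptophan metabolites, were looked at after the values of Cyp1a1 and Ahrr had been seen, and they did not share a direction at P20. Cyp1a1 had 279.6, 466 and 528 normalised counts in 2i/LIF and 6.30, 10.0 and 11.3 in Serum/LIF, and Ahrr, which encodes the repressor of the receptor, had a log2 fold change of 3.76 (SE 0.45, adjusted p = 1.10e-06). Nqo1, a quinone reductase gene on chromosome 8, rose from 289, 259 and 230.2 to 1377, 1962 and 1896 (2.75, SE 0.13, adjusted p = 9.03e-12), and no library of one medium reached the levels of the other. Cyp1b1 had −1.85 (SE 0.42, adjusted p = 9.99e-04), or −1.41, which did not pass, without Serum/LIF replicate 3, the aldehyde dehydrogenase gene Aldh3a1 −1.19 (SE 0.30, adjusted p = 0.00260) and Tiparp, a mono-ADP-ribosyltransferase gene, −0.83 (SE 0.12, adjusted p = 1.35e-05). The receptor gene Ahr itself had −0.46 (adjusted p = 0.0270) and its partner Arnt 0.17 (adjusted p = 0.0664), neither of which passed edgeR's test. Ahr passed it with the replicate block (−0.48) and with library totals alone (−0.58).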
